A study of Mus musculus with 217 samples.

Results

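The brain endothelial libraries taken 24 hr after an injection of lipopolysaccharide (LPS, a component of the outer membrane of Gram-negative bacteria) are described here against those taken at 0 hr. All libraries labelled brain with a time of 24 or 0 hr were members, provided that at least 3% of their reads fell on genes. This left 9 of 11 libraries, 4 of 5 at 24 hr and 5 of 6 at 0 hr, out of 98 libraries of brain, heart and lung in the series. The mice were adult RiboTag-EC mice on the C57BL/6J background that carried Cdh5CreERT2/+ and Rpl22HA/+. They received 5 mg tamoxifen 4 times by gavage, starting at 4 to 6 weeks of age. The 24 hr group received 10 mg/kg LPS by intraperitoneal injection, and the controls received phosphate-buffered saline. In this line Cre is driven by the promoter of Cdh5, the endothelial cadherin, so that endothelial cells make a ribosomal protein with a haemagglutinin (HA) tag, and RNA bound to tagged ribosomes was pulled down from whole brain and sequenced. The measure is therefore ribosome-bound RNA of cells in which the promoter is or was active, and RNA of other cells that adheres in the pull-down is counted with it.

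The 24 hr libraries held 9085705, 24960605, 27231044 and 28391180 counts on genes (replicates 1, 2, 4 and 5), and the 0 hr libraries 8757674 to 25410277 (replicates 1 to 5). Levels below are log2 CPM (counts scaled to the effective library size) with a prior count of 2, always in that order of replicates. A count of 3, used as the floor, stood for 0.106 to 0.343 CPM, and such floors cover counting error only. Names of the deposited files follow 4 patterns, called library series 1 to 4 here because sequencing batches are not labelled. Series 1 held 24 hr replicate 1 and 0 hr replicates 1 and 2, series 2 held 24 hr replicate 2 and 0 hr replicates 3 to 5, and series 4 held 24 hr replicates 4 and 5 with no 0 hr library. The offset of series 4 was therefore estimated from the other time points, by fitting all 28 kept brain libraries with time and library series. Differences within series 1 and 2 are given for some leading genes. Where leaving out 1 library ended a call or moved a count of called members by over 1.5 times, that library is named in parentheses, as L1, L2, L4 or L5 for the 24 hr replicates and N1 to N5 for the 0 hr replicates of those numbers.

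Endothelial cells of the brain form the blood-brain barrier, in which tight junctions seal the gaps between cells and transporters carry sugars, amino acids, hormones and drugs across. Wnt ligands from neural cells keep this barrier programme on. LPS is recognised through CD14, TLR4 and MD-2, which signal through MyD88 and TRIF to NF-kappaB and to interferon regulatory factors, and brain endothelium also responds to cytokines such as TNF, IL-1 and IL-6 that reach it in the blood.

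The endothelial markers Cdh5 and Pecam1 stood well above the floor in all 9 libraries. Some other endothelial identity genes rose or fell, as given below. The series holds no library of whole brain RNA, so enrichment for endothelial RNA was not tested. Cdh5, which encodes the cadherin of endothelial adherens junctions, stood at 8.66, 8.23, 9.35 and 9.37 at 24 hr and 8.55, 8.36, 7.52, 7.94 and 8.00 at 0 hr. Pecam1, an adhesion molecule of endothelial junctions, stood at 8.65, 8.10, 8.20 and 8.60 at 24 hr and 8.44, 8.99, 7.55, 8.16 and 7.95 at 0 hr. The groups overlapped for both genes, and neither passed the test (edgeR adjusted p = 0.295 and 0.993). Rpl22, the tagged ribosomal protein, differed by 0.25 ± 0.18 (SE, edgeR adjusted p = 0.413). The adjusted p is that of edgeR's quasi-likelihood test with Benjamini-Hochberg adjustment over all genes tested, and a value under 0.05 is called. Log2 fold changes are given ± SE with 4 libraries at 24 hr and 5 at 0 hr. The spread behind the SE was estimated over all 28 kept brain libraries. Whether reads were counted by strand is not given in the sources used here. Exons of the following genes named in the text overlap those of an opposite-strand gene over 11.0% to 73.5% of their length, so their values are uncertain: Adamts9, Aldh1l1, Bid, C1s1, Cebpb, Cebpd, Ch25h, Ctsl, Cxcl16, Dbp, Dll1, Fdft1, Foxq1, H2-Q4, Hspa1a, Icam1, Lef1, Mt2, Myd88, Ndufa13, Nos3, Notum, Pllp, Psmb8, Ptger1, Rasip1, Selp and Slc6a9.

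For other brain cells 14 marker lists were followed. The summed level of 12 neuronal markers was 2199, 8529, 1364 and 1820 CPM at 24 hr and 2275, 3451, 7380, 8749 and 6178 CPM at 0 hr, with Snap25, a synaptic vesicle fusion protein, as the most abundant. The groups overlapped, and within the 24 hr group replicate 2 stood highest. Snap25 itself stood at 9.44, 11.26, 8.37 and 9.10 at 24 hr and 9.57, 10.19, 10.73, 11.42 and 10.47 at 0 hr log2 CPM and was not called. It stood above Cdh5 and Pecam1 in every 0 hr library, while at 24 hr it stood below Cdh5 in some libraries. By edgeR 0 of 12 neuronal markers were called, 1 was lower at an unadjusted p under 0.05, and DESeq2 and limma-voom called 0. Over all 19234 genes tested, 2614 were higher and 2665 lower at an unadjusted p under 0.05. The unadjusted counts of every list stand beside these. None of the markers of any list was at 0 in all 9 libraries.

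Pericytes, the mural cells that share the endothelial basement membrane, gave summed levels of 1310, 823, 1287 and 1469 CPM at 24 hr and 2671, 1642, 2852, 1840 and 3542 CPM at 0 hr over 8 markers, led by Vtn. All 24 hr libraries lay below all 0 hr libraries, yet edgeR called 0 of 8 members, with 2 lower at an unadjusted p under 0.05 and 0 called by DESeq2 and limma-voom. Summed levels of 6 B lymphocyte markers, led by Ighm, were also lower without overlap, at 5.77, 10.9, 3.61 and 6.2 CPM against 11.8, 11.9, 12.7, 19.1 and 18 CPM. Fibroblast markers (6, led by Dcn) summed to 5167, 1591, 5206 and 5955 CPM at 24 hr and 2053, 1556, 722, 1313 and 588 CPM at 0 hr, of which Dcn alone gave 4278, 1209, 4509 and 5033 and 936, 648, 264, 505 and 256 CPM. Neutrophil markers (13, led by S100a8) summed to 55.4, 62.3, 68.9 and 172 and 8.59, 40.7, 66.9, 40.1 and 27.5 CPM. The sums of both lists overlapped between groups. The marker S100a8 itself did not, at 32.7, 32.4, 47.4 and 97.9 CPM at 24 hr and 2, 10.7, 22.2, 14.9 and 9.22 CPM at 0 hr. Of 11 neutrophil markers tested 2 were higher and 0 lower without overlap, beside 9.86% and 9.10% of all genes. Within series 1 and within series 2, however, the fibroblast sum at 24 hr was above every 0 hr sum. Smooth muscle markers (5, led by Tagln) summed to 45.1, 51.8, 117 and 157 CPM at 24 hr and 148, 192, 319, 100 and 573 CPM at 0 hr, with overlap. Within series 1 and within series 2 their sum at 24 hr was below every 0 hr sum. The part of such cells in the differences described below was not tested, and in bulk samples fewer cells of a type and less RNA per cell cannot be told apart.

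Single markers passed the test in some of these lists, which is given per list with its median log2 fold change. Among astrocytes Aldh1l1 (0.89 ± 0.19), a folate enzyme, was higher (2 by ComBat) and S100b (-0.79 ± 0.20) lower (2 without N5, 2 by DESeq2, 2 by ComBat) (10 tested, median 0.18). Among oligodendrocytes Olig1 (-0.93 ± 0.28), a lineage transcription factor, was lower (0 by limma-voom, 3 by ComBat, 3 unadjusted) (10 tested, median -0.43), and among microglia P2ry12 (-2.45 ± 0.66), a purinergic receptor (2 by ComBat) (12 tested, median -0.02), where 6 members were lower and 5 higher in both series and edgeR called 0 higher (2 unadjusted, 1 by DESeq2). Of 11 monocyte and macrophage markers Cd68 (2.33 ± 0.42) and Plac8 (3.79 ± 0.66) were higher (median 0.27), while 4 were lower in both series and 3 lower without overlap, and edgeR called 0 lower (1 unadjusted, 1 by DESeq2). Of 4 B lymphocyte markers Cd79a (-2.08 ± 0.54), a chain of the B cell receptor, was lower (median -0.69), of 5 smooth muscle markers Mylk (-1.65 ± 0.52), myosin light chain kinase, was lower (median -1.32), and of 6 fibroblast markers Dcn (1.85 ± 0.39) and Col3a1 (1.18 ± 0.37) were higher (1 without L1, L4, L5, N1, N2 or N3, 1 by limma-voom) (median 0.18), while 3 of the 6 were lower in both series and not called. P2ry12, Cd68, Plac8 and Cd79a were chosen after their values were seen. By edgeR 0 members were called among 11 neutrophil markers (2 higher at an unadjusted p under 0.05, 1 by DESeq2 and 0 by limma-voom; median 0.38) and among 8 choroid plexus and ependyma markers (2 lower unadjusted, 1 by DESeq2; median -0.33). The same 0 held for 6 erythroid (1 lower unadjusted; median -1.40), 5 T and NK lymphocyte (median -0.18) and 3 platelet markers (median 0.03), with 0 unadjusted in the last 2 lists and 0 by DESeq2 and limma-voom in all 3. Leaving out 1 library ended the call of S100b (L1, N1, edgeR adjusted p 0.121 and 0.0673), Olig1 (L1, L2, L4, L5, N1, N2, N4, p 0.0512 to 0.128), P2ry12 (L1, L2, p 0.0862 and 0.116) and Cd79a (L2, N1, p 0.0764 and 0.0517). The call was lost without 1 library for Mylk (L1, L2, L4, N1, N2, N3, N5, edgeR adjusted p 0.0525 to 0.135) and Col3a1 (L1, L4, L5, N1, N2, N3, p 0.0518 to 0.104).

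Some libraries went against their labels and enter the fits. The library labelled brain 6 hr replicate 6 had Saa3 at 0.53 log2 CPM, against 10.63 to 10.72 in the other 4 libraries labelled 6 hr, and its Cxcl1 (0.80) and Socs3 (2.89) lay within the 0 hr range, but its Lcn2 (8.50) lay above the 2.66 to 5.40 of the 0 hr libraries. Without it 1435 genes were higher and 1138 lower at 24 hr (1254 and 897 with it). Libraries labelled 48 hr also differed among themselves: Mt2 stood at 7.63, 7.71, 12.42, 8.32, 12.72 and 12.50 log2 CPM in replicates 1, 2, 3, 4, 6 and 7, of which the first pair is series 2 and the last pair series 4. These 48 hr libraries enter the estimate of the offset of series 4. Responses that differ among them can move that offset and with it the fold changes, by an amount that was not tested. Shares of reads on genes were 58.5% ± 3.05 (SD, n = 4) at 24 hr and 62.6% ± 4.25 (SD, n = 5) at 0 hr (exact permutation p = 0.111, 0.286 adjusted over 3 measures).

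At 24 hr 1254 genes were higher (6.52% of 19234 tested) and 897 lower (4.66%) than at 0 hr. The median log2 fold change was 1.47 over the genes called higher and -1.28 over those called lower, against -0.025 over all genes tested. Log2 CPM did not overlap between the groups for 3647 genes (19.0%), with 1896 higher (9.86%) and 1751 lower (9.10%) at 24 hr. Lists with 1 called member, or a share under 2 times that of all genes (higher members of the endothelial identity, BMP and TGF-beta, clock and glycolysis lists, lower ones of the respiratory chain), give no result about the list. The p-values rest on the spread within time groups over all 28 kept brain libraries, including those at odds with their labels. They measure spread between libraries, since the labels do not say which come from the same mouse.

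**Figure D1:**
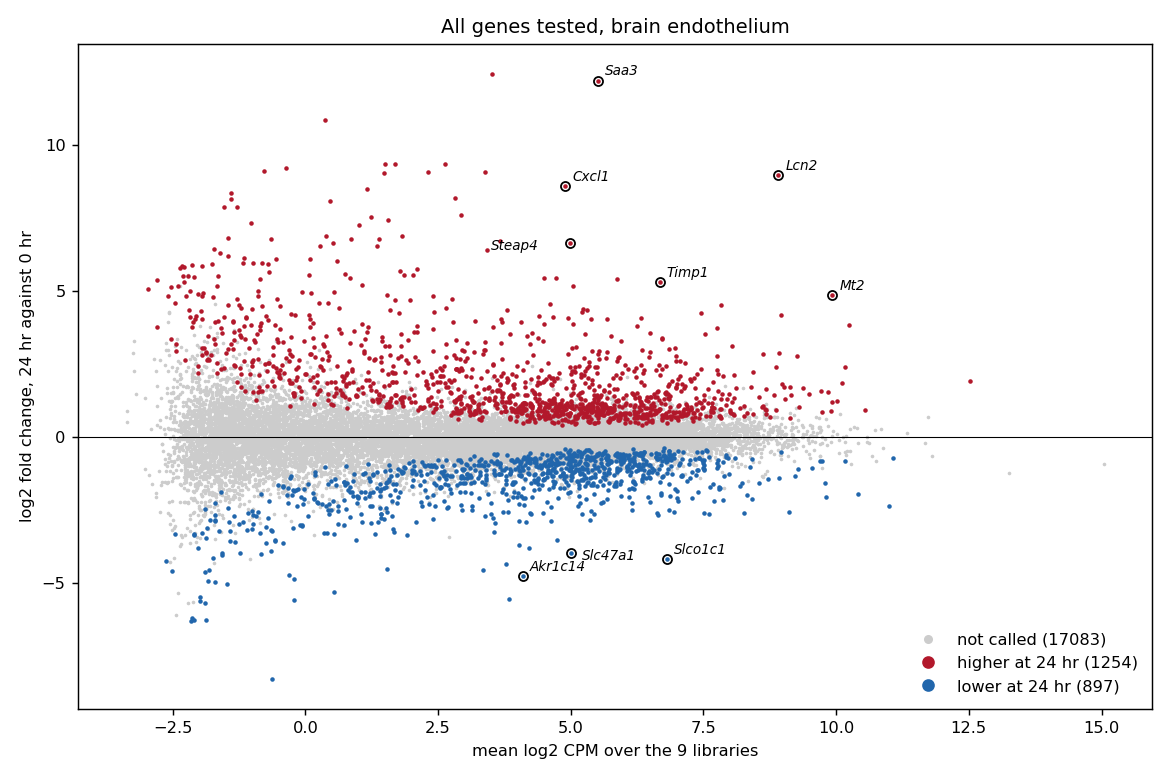
Log2 fold change at 24 hr against 0 hr (vertical axis) is plotted over mean log2 CPM (horizontal axis) for the 19234 genes tested, with the 1254 genes called higher in red, the 897 called lower in blue and the others in grey. Saa3 lies at 12.21 and Slco1c1 at -4.18.

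Counts moved when single libraries were left out or the tool was changed, and a list's count of at least 1 that another tool moved by over 1.5 times is given with it. Without 24 hr replicate 1 the counts were 781 higher and 258 lower, without 24 hr replicate 2 they were 659 and 377, without 24 hr replicate 4 the lower count was 480 and without replicate 5 it was 490. Leaving out 0 hr replicate 1 gave 794 and 385, and leaving out 0 hr replicate 2 gave 768 and 516. All 211 called genes named here kept their direction, an outcome that their choice as called genes in these libraries largely fixes. Of them 118 were called whichever of the 9 libraries was left out. For the other 93 the libraries whose absence ended the call are given with the gene, beside the adjusted p reached.

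Among genes with a mean of at least 4 log2 CPM and groups that did not overlap, Saa3, Lcn2, Cxcl1 and Steap4 had the largest rises. Saa3, an acute-phase apolipoprotein, stood at 12.20, 11.80, 12.99 and 13.64 at 24 hr and 1.15, -2.33, 0.19, 0.26 and -0.30 at 0 hr (log2 fold change 12.21, SE 1.41, edgeR adjusted p = 2.69e-05). Lcn2, a lipocalin that binds bacterial siderophores, stood at 14.50, 13.60, 14.86 and 15.17 at 24 hr and 4.47, 4.76, 5.40, 4.69 and 2.66 at 0 hr (log2 fold change 8.98, SE 1.06, edgeR adjusted p = 3.18e-05). For both genes every 24 hr library lay above every 0 hr library, and the differences were 12.79 and 11.75 within series 1 and 2 for Saa3 and 9.88 and 9.35 for Lcn2. Cxcl1, a chemokine that attracts neutrophils, stood at 9.34, 9.50, 10.71 and 12.00 at 24 hr and -0.32, 0.59, -0.15, 1.44 and 0.97 at 0 hr (log2 fold change 8.60, SE 1.43, edgeR adjusted p = 0.000633). Steap4, a metalloreductase, stood at 10.07, 7.43, 9.64 and 10.11 at 24 hr and 1.15, 1.98, 1.35, 1.09 and 2.07 at 0 hr (log2 fold change 6.66, SE 0.99, edgeR adjusted p = 0.000218). The groups were apart for these genes too, with differences of 9.20 and 8.74 within series 1 and 2 for Cxcl1 and 8.51 and 5.93 for Steap4. Reads of Saa3 may be shared with other Saa genes and pseudogenes, so its value is uncertain.

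Next in size, Upp1, a uridine phosphorylase, stood at 7.36, 7.12, 8.93 and 8.49 at 24 hr and 1.95, 2.52, 1.54, 1.09 and 1.38 at 0 hr (log2 fold change 5.45 ± 0.70). Cd14, the LPS co-receptor, stood at 8.04, 7.19, 8.86 and 8.69 at 24 hr and 2.43, 2.33, 1.71, 1.90 and 1.26 at 0 hr (5.44 ± 0.85). Plaur, the urokinase receptor, stood at 8.12, 7.17, 9.24 and 9.33 at 24 hr and 2.72, 3.20, 1.68, 2.34 and 1.53 at 0 hr (5.17 ± 0.84). None of the 3 had overlapping groups. This was a condition for all 15 leading risers, which also include Serpina3n, Timp1, Mt2, Cxcl10, Ackr1, Ch25h, Pla1a and Socs3. Serpina3n, a serine protease inhibitor with close relatives in a gene cluster and so uncertain, rose by 5.42 ± 0.66. Timp1, an inhibitor of matrix metalloproteinases, stood at 10.13, 8.95, 10.76 and 11.30 at 24 hr and 4.84, 3.82, 3.31, 4.09 and 2.83 at 0 hr (5.31 ± 0.78). Ch25h, which makes 25-hydroxycholesterol, stood at 8.22, 7.65, 7.81 and 8.53 at 24 hr and 3.62, 4.03, 2.48, 2.92 and 1.73 at 0 hr (4.39 ± 0.71). The groups lay apart for both, and Pla1a, a phosphatidylserine phospholipase, rose by 4.34 ± 0.57.

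**Figure D2:**
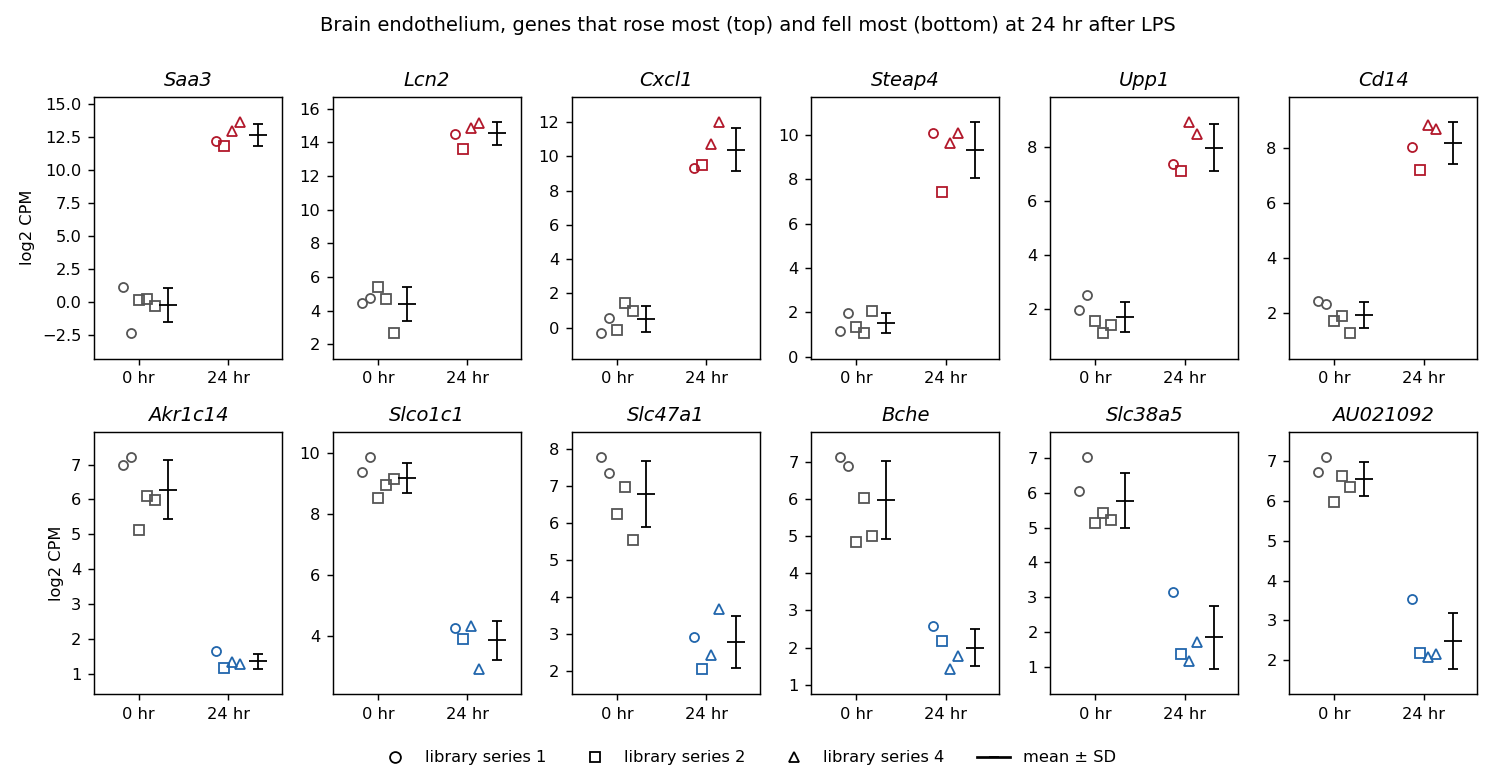
Log2 CPM (vertical axis) in each of the 4 libraries at 24 hr and 5 at 0 hr, with point shapes for library series and bars for mean ± SD, for 6 genes that rose (top) and 6 that fell (bottom). Saa3 lies between 11.80 and 13.64 at 24 hr and Slco1c1 between 2.95 and 4.33, the former above and the latter below all 0 hr libraries.

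Promoters of the leading risers are shown because these genes moved together and their regulation through NF-kappaB, STAT3 and interferon factors is well known. RefSeq's GRCm38.p6 table gave promoters for 13 of the first 15 genes higher at 24 hr and 10 of the first 15 lower, each 300 bases long from before to just after the transcription start. Printed 5′ to 3′ on the gene's strand, they are Saa3 at chr7:46715627-46715926 (minus strand), Lcn2 at chr2:32387690-32387989 (minus), Cxcl1 at chr5:90890995-90891294 (plus), Steap4 at chr5:7960222-7960521 (plus), Upp1 at chr11:9117758-9118057 (plus) and Serpina3n at chr12:104406458-104406757 (plus). Capitals mark matches on either strand to GGNNTTTCC (part of a kappaB site), TTCNNNGAA (STAT) or GAAANNGAA (the core of an interferon-stimulated response element).
Saa3: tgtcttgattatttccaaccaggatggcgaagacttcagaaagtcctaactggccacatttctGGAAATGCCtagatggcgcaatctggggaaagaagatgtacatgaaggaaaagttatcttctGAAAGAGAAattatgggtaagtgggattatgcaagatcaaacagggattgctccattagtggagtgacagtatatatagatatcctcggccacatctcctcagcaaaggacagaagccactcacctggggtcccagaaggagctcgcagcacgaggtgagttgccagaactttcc
Lcn2: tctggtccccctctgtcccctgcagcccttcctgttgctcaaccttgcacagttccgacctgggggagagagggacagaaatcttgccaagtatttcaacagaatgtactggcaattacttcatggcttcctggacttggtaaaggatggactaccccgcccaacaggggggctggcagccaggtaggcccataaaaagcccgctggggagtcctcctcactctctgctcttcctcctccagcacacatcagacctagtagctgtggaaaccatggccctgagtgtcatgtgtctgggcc
Cxcl1: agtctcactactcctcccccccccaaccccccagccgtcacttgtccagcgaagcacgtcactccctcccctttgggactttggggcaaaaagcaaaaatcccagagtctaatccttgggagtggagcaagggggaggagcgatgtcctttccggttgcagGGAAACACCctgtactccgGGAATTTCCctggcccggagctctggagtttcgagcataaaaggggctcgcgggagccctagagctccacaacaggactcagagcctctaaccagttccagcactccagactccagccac
Steap4: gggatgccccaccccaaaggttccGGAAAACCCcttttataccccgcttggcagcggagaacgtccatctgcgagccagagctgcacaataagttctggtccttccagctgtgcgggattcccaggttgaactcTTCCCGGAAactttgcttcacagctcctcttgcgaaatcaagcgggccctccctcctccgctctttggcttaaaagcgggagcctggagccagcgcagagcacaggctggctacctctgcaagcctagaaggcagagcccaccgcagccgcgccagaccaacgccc
Upp1: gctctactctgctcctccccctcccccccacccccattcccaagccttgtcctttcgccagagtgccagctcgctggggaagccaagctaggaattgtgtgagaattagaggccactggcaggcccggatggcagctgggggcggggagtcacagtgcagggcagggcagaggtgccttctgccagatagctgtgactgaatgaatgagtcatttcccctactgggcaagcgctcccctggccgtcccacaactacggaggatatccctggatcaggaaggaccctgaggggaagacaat
Serpina3n: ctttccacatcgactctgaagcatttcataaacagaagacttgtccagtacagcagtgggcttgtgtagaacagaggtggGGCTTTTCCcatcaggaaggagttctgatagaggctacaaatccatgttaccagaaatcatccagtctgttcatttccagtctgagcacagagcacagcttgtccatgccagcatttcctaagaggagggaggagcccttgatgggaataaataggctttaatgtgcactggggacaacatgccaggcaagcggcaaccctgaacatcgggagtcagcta

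The kappaB letters occurred in Saa3 (1 match), Cxcl1 (2), Steap4 (1) and Serpina3n (1), the STAT letters in Steap4 (1) and the interferon letters in Saa3 (1), with no overlap between different motifs. Lcn2 and Upp1 had none of them in this window. Over the 15 promoters of those 13 higher genes, 5 held the kappaB letters (33.3%), against 1913 of all 32851 promoters (5.82%). STAT letters stood in 2 of the 15 (13.3%) against 2726 of all (8.30%), and interferon letters in 2 (13.3%) against 2812 (8.56%). Of the 10 promoters of lower genes 1 held the kappaB letters (10.0%), 0 the STAT letters and 2 the interferon letters (20.0%). A match is a description of the sequence and no sign of binding.

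Acute-phase genes were the list with the highest median. Of 20 tested 16 rose, with a median log2 fold change of 5.30 against -0.025 over all genes, or 4.79 with the 5 members that had no count at 0 hr set to their lower bound. Those 5 (Orm1, Orm2, Fga, Fgb and Apcs) passed the count filter only through groups after LPS. They could only come out higher, so their part in the counts of this list was fixed in advance. C3, the central complement protein, stood at 8.08, 5.55, 7.18 and 8.04 at 24 hr and -1.15, -0.51, 1.75, -0.13 and 1.97 at 0 hr (log2 fold change 6.40, SE 0.84, edgeR adjusted p = 7.66e-05). Lrg1, a glycoprotein that modulates TGF-beta signalling, stood at 9.14, 8.62, 9.34 and 9.63 at 24 hr and 4.14, 5.11, 5.89, 5.65 and 2.84 at 0 hr (3.37 ± 0.68), and Lbp, which hands LPS to CD14, stood at 9.71, 8.08, 8.96 and 9.51 at 24 hr and 6.10, 5.52, 4.85, 5.57 and 4.29 at 0 hr (3.06 ± 0.57). All 3 had groups apart.

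Genes of IL-6 and STAT3 signalling rose in 14 of 21 cases (median 1.89, with 9 without L2, 9 by limma-voom). Socs3, the feedback inhibitor of this pathway, stood at 7.93, 7.03, 8.54 and 8.88 at 24 hr and 2.98, 3.51, 2.21, 3.02 and 2.78 at 0 hr (log2 fold change 4.30, SE 0.77, edgeR adjusted p = 0.00124). All 24 hr values exceeded all 0 hr values, with differences of 4.69 within library series 1 and 4.36 within series 2. The transcription regulators of the list that rose include Cebpd (3.39 ± 0.72), Bcl3 (3.20 ± 0.65), Cebpb (2.74 ± 0.65) and Junb (2.47 ± 0.47). Il4ra, a receptor chain for IL-4 and IL-13, rose by 3.45 ± 0.59. Il6 itself, chosen after its values were seen, stood at 4.26, 3.33, 6.01 and 6.46 at 24 hr and -1.15, -3.36, -2.49, -2.48 and -2.87 at 0 hr, with 8 counts in all at 0 hr (log2 fold change 6.78, SE 1.48, edgeR adjusted p = 0.005).

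Chemokines rose in 8 of 13 cases of the CXC and CX3C families (4 by limma-voom) (median 3.77) and in 10 of 14 of the CC family (5 by limma-voom) (median 3.63). Cxcl10, which draws T cells through CXCR3, stood at 6.24, 5.55, 9.66 and 9.86 at 24 hr and 2.95, 2.47, 1.54, 1.34 and 1.78 at 0 hr (log2 fold change 4.56, SE 1.18, edgeR adjusted p = 0.0149). Ccl2, which draws monocytes through CCR2, stood at 8.20, 7.08, 7.44 and 8.37 at 24 hr and 1.22, 1.45, -0.28, -0.34 and -0.16 at 0 hr (log2 fold change 6.71, SE 1.06, edgeR adjusted p = 0.000424). Both had groups that did not overlap. Cxcl16, a membrane-bound ligand of CXCR6, rose by 1.19 ± 0.38. By edgeR 1 member of these lists was called lower, Cxcl12, which keeps CXCR4-bearing cells at the vessel wall. Cxcl12 stood at 9.39, 7.78, 8.67 and 8.95 at 24 hr and 10.24, 10.55, 8.68, 9.18 and 9.49 at 0 hr (-1.33 ± 0.41), with overlapping groups. In each of the 2 lists 3 members were lower within both series 1 and 2. With 1 library left out, the test was no longer passed by Cxcl16 (L1, L2, L4, L5, N1, N2, N3, N5, edgeR adjusted p 0.0507 to 0.177) and Cxcl12 (L1, L2, L4, L5, N1, N2, N4, N5, p 0.0512 to 0.0999).

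Of 19 leukocyte adhesion molecules 6 rose and 2 fell (edgeR 0 without L1, L2, L4, L5, N1, N2 or N4, with 2 to 4 at an unadjusted p under 0.05, 4 by ComBat) (median 0.26). Icam1, the ligand of leukocyte integrins, stood at 10.45, 9.46, 10.04 and 10.63 at 24 hr and 5.86, 5.84, 4.70, 5.66 and 4.53 at 0 hr (log2 fold change 4.25, SE 0.65, edgeR adjusted p = 0.00028). Selp, the P-selectin on which leukocytes roll, stood at 8.59, 7.36, 7.34 and 7.38 at 24 hr and -2.22, 0.15, -0.79, -0.77 and -1.75 at 0 hr (log2 fold change 8.20, SE 1.25, edgeR adjusted p = 0.00028), with 40 counts in all at 0 hr. Sele, the E-selectin, stood at 7.66, 4.58, 4.21 and 4.29 at 24 hr and -3.36, 0.86, -3.36, -1.24 and -1.57 at 0 hr (log2 fold change 6.56, SE 1.30, edgeR adjusted p = 0.00259), with 31. Each had every 24 hr library above every 0 hr library, and both selectins were chosen after their values were seen. Ackr1, an atypical chemokine receptor of venules, stood at 11.10, 10.05, 10.78 and 10.70 at 24 hr and 4.29, 5.58, 6.02, 6.09 and 5.89 at 0 hr (4.53 ± 0.81), also apart. Vcam1, the ligand of integrin alpha-4 beta-1, stood at 9.11, 8.06, 7.78 and 8.63 at 24 hr and 8.08, 7.84, 7.21, 7.73 and 6.60 at 0 hr with overlap and was not called (edgeR adjusted p = 0.085). The lower members were Alcam (-1.28 ± 0.39) and Cd99l2 (-0.74 ± 0.23), which both serve leukocyte passage. Calls that ended when 1 library was left out were those of Alcam (L1, L2, L4, L5, N1, N2, N4, edgeR adjusted p 0.0542 to 0.112) and Cd99l2 (L1, L2, L4, L5, N1, N2, N4, p 0.0565 to 0.207).

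Of 14 genes of the TLR4 complex 8 rose (median 1.02, with 5 without L1 or L2). Beside Cd14 and Lbp, the adaptors Myd88 (1.62 ± 0.35) and Tirap (0.90 ± 0.26) were higher. Irak3, an inhibitory kinase of the pathway, stood at 7.74, 6.89, 7.81 and 7.82 at 24 hr and 4.53, 4.74, 3.07, 3.95 and 3.25 at 0 hr (2.95 ± 0.60) with no overlap, and the kinase Irak2 (1.42 ± 0.45) was higher too. TNF and IL-1 genes rose in 9 of 16 cases (median 1.19). Tnf, chosen after its values were seen, had 166 counts at 24 hr and none at 0 hr, which is at least 55.3-fold higher against a floor of 3 counts over the group. Receptors of both cytokines rose, namely Tnfrsf1a (1.67 ± 0.35), Il1r1 (1.46 ± 0.39) and Tnfrsf1b (1.42 ± 0.37), as did the signalling proteins Ripk1 (0.79 ± 0.26) and Traf2 (0.77 ± 0.21). Calls lost without 1 library were those of Tirap (L1, L2, N1, N2, N3, edgeR adjusted p 0.0521 to 0.0934), Irak2 (L1, L2, L5, N1 to N5, p 0.0543 to 0.0826), Il1r1 (L1, L2, p 0.0638 and 0.111) and Ripk1 (L1, L2, N1 to N5, p 0.056 to 0.134). Without 1 library the threshold was missed by Traf2 (L1, L2, edgeR adjusted p 0.0566 and 0.119).

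NF-kappaB factors and their inhibitors rose in 13 of 18 cases (median 1.89). Nfkbiz, a nuclear co-regulator, stood at 6.96, 6.21, 7.95 and 8.61 at 24 hr and 1.91, 2.33, 2.95, 2.12 and 2.94 at 0 hr (log2 fold change 4.12, SE 0.74, edgeR adjusted p = 0.00124). Tnfaip3, the ubiquitin-editing enzyme A20 that shuts the pathway down, stood at 6.49, 5.48, 6.65 and 7.75 at 24 hr and 2.61, 3.07, 1.93, 2.31 and 2.15 at 0 hr (log2 fold change 3.55, SE 0.77, edgeR adjusted p = 0.00484). Neither had overlapping groups. The further risers included the inhibitors Tnip1 (2.91 ± 0.58) and Nfkbie (2.68 ± 0.47), the anti-apoptotic Birc3 (3.07 ± 0.53) and the TNF-induced Tnfaip2 (3.94 ± 0.78).

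Interferon-stimulated genes rose in 8 of 35 cases (5 without N2 or N3, 14 by DESeq2, 18 by ComBat), with a median of 1.05. All 35 had fitted fold changes above 0, while 29 were higher and 1 lower than at 0 hr within both series 1 and 2. At an unadjusted p under 0.05, 20 of the 35 were higher, beside 2614 of all 19234 genes. Zbp1, a sensor of left-handed nucleic acid, stood at 6.45, 5.96, 8.06 and 8.27 at 24 hr and 2.74, 2.50, 1.78, 1.90 and 1.98 at 0 hr (log2 fold change 4.14, SE 0.69, edgeR adjusted p = 0.000667), with no overlap. The membrane proteins that block virus entry rose together, with Ifitm3 beside Ifitm1 (2.60 ± 0.49) and Ifitm2 (1.76 ± 0.40), but they share sequence and are uncertain. Irf7 (1.75 ± 0.51), an interferon regulatory factor, and Rtp4 (1.22 ± 0.37) were also higher. Isg15, a ubiquitin-like modifier, stood at 7.20, 7.11, 8.34 and 8.68 at 24 hr and 6.41, 6.04, 5.50, 6.22 and 5.61 at 0 hr, without overlap but not called (edgeR adjusted p = 0.0636). A leave-out of 1 library ended the call of Ifitm2 (L2, edgeR adjusted p 0.0509), Irf7 (N2, N3, N4, p 0.0552 to 0.0633) and Rtp4 (L2, L5, N1, N3, N5, p 0.0503 to 0.0773).

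GTPases induced by interferon rose in 11 of 16 cases (median 2.17). Iigp1, which attacks vacuoles of parasites, stood at 7.28, 6.83, 9.60 and 10.18 at 24 hr and 5.69, 5.60, 3.52, 4.14 and 4.19 at 0 hr (2.97 ± 0.68), and Gbp2, a guanylate-binding protein, stood at 9.50, 8.08, 10.62 and 10.86 at 24 hr and 7.10, 6.83, 5.37, 5.86 and 5.56 at 0 hr (2.78 ± 0.64). Both genes had groups apart. Others were Gbp4 (2.62 ± 0.59), Gbp5 (2.61 ± 0.64), Irgm1 (1.99 ± 0.51) and Igtp (1.93 ± 0.57), and since these families hold near-identical copies all values are uncertain. The test was not passed without 1 library by Igtp (L2, N3, N4, N5, edgeR adjusted p 0.053 to 0.0904).

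Genes of antigen presentation on MHC class I rose in 15 of 21 cases (median 1.15). Tap1, which pumps peptides into the endoplasmic reticulum, stood at 6.51, 6.72, 8.69 and 8.85 at 24 hr and 5.02, 4.43, 3.84, 4.47 and 4.49 at 0 hr (log2 fold change 2.72, SE 0.55, edgeR adjusted p = 0.00304). Psmb8, a subunit of the immunoproteasome, stood at 7.30, 6.89, 8.95 and 8.96 at 24 hr and 6.56, 6.45, 5.35, 5.69 and 5.37 at 0 hr (1.48 ± 0.38). All 24 hr values of both lay above the 0 hr values. The heavy chains H2-K1 (1.71 ± 0.31), H2-Q6 (2.39 ± 0.52), H2-Q4 (1.93 ± 0.46) and H2-Q7 (1.76 ± 0.42) rose, with uncertain values because the family members are alike. For MHC class II, which presents to CD4+ T cells, 6 genes were tested (median -0.90) and H2-Eb1 (-1.59 ± 0.38), chosen after its values were seen, was the called member, lower at 24 hr (3 without L5, 2 by DESeq2, 4 by ComBat). Cd74, the invariant chain, stood at 5.79, 5.28, 6.70 and 7.62 at 24 hr and 6.17, 5.59, 5.35, 5.16 and 4.90 at 0 hr with overlap. Leaving out 1 library ended the call of H2-Eb1 (L1, edgeR adjusted p 0.0556).

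Complement genes rose in 10 of 15 cases (median 1.44). C1ra, a protease of the C1 complex, stood at 7.61, 6.31, 7.82 and 7.92 at 24 hr and 3.16, 3.18, 3.07, 3.35 and 2.96 at 0 hr (log2 fold change 3.87, SE 0.44, edgeR adjusted p = 2.44e-05), with no overlap. Its partner C1s1 (2.98 ± 0.47) rose, with C4b (1.34 ± 0.39) and the endothelial lectin-like protein Cd93 (1.44 ± 0.25). The call was lost without 1 library for C4b (L1, N2, N4, edgeR adjusted p 0.0511 to 0.0786).

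The 15 leading fallers were taken from called genes with a mean of at least 4 log2 CPM and groups that did not overlap. Of these 15, Slco1c1, the thyroxine transporter of brain endothelium, stood at 4.27, 3.91, 4.33 and 2.95 at 24 hr and 9.37, 9.84, 8.52, 8.94 and 9.14 at 0 hr (log2 fold change -4.18, SE 1.18, edgeR adjusted p = 0.0236). Akr1c14, a hydroxysteroid dehydrogenase, stood at 1.66, 1.15, 1.35 and 1.28 at 24 hr and 7.00, 7.21, 5.14, 6.09 and 5.98 at 0 hr (log2 fold change -4.77, SE 0.82, edgeR adjusted p = 0.000913). Every 24 hr library lay below every 0 hr library in both, by -5.33 and -4.96 within series 1 and 2 for Slco1c1 and -5.45 and -4.58 for Akr1c14. Slc38a5, a carrier of glutamine, stood at 3.16, 1.37, 1.15 and 1.71 at 24 hr and 6.07, 7.02, 5.15, 5.43 and 5.21 at 0 hr (log2 fold change -3.71, SE 0.83, edgeR adjusted p = 0.0061). Slc22a8, an organic anion transporter, stood at 6.88, 5.12, 5.57 and 6.30 at 24 hr and 9.75, 9.13, 8.05, 8.88 and 7.97 at 0 hr (-2.62 ± 0.66). These were apart as well. Others of the 15 were the carriers Slc47a1 (-3.97 ± 0.93) for organic cations, Slc19a3 (-2.90 ± 0.59) for thiamine, Slc22a6 (-2.67 ± 0.73) for organic anions, Slc16a4 (-2.63 ± 0.83), a relative of the monocarboxylate carriers, and Slc40a1 (-2.63 ± 0.85), the iron exporter. Further ones were Bche (-3.80 ± 0.72), butyrylcholinesterase, Clec3b (-2.85 ± 0.57), tetranectin, Pllp (-2.62 ± 0.52), plasmolipin, Ushbp1 (-2.90 ± 0.67) and AU021092 (-3.53 ± 0.89). With 1 library left out, the test was no longer passed by Slco1c1 (L1, L2, edgeR adjusted p 0.0964 and 0.0995), Slc22a8 (L2, p 0.062), Slc22a6 (L1, L2, p 0.0543 and 0.0719) and AU021092 (L2, p 0.0584). Any 1 of the 9 libraries, left out, ended the call of Slc16a4 (edgeR adjusted p 0.0504 to 0.128) and Slc40a1 (edgeR adjusted p 0.0557 to 0.15).

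Over the whole list of blood-brain barrier transporters 15 of 25 fell (8 without L1 or L2), with a median of -1.38 against -0.025 over all genes. Slc7a5, which carries large neutral amino acids, stood at 6.68, 6.77, 6.45 and 6.40 at 24 hr and 10.05, 9.95, 9.22, 9.51 and 9.39 at 0 hr (log2 fold change -2.60, SE 0.59, edgeR adjusted p = 0.00631), with no overlap. Slc2a1, the glucose carrier GLUT1, stood at 10.70, 9.88, 10.82 and 10.70 at 24 hr and 11.48, 11.33, 10.31, 10.70 and 10.20 at 0 hr, overlapped and was not called (edgeR adjusted p = 0.0959). Abcg2, a drug efflux pump, stood at 7.73, 7.67, 7.59 and 7.85 at 24 hr and 8.81, 8.80, 8.03, 8.26 and 7.99 at 0 hr and was not called either (edgeR adjusted p = 0.0631), although its groups did not overlap.

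Target genes and factors of the Wnt pathway fell in 7 of 18 cases (1 without L1, 2 without N2, 3 without L2, 12 by ComBat), with a median of -0.74. Lef1, the transcription factor that acts with beta-catenin, stood at 6.30, 5.15, 6.26 and 6.58 at 24 hr and 7.32, 7.90, 5.88, 6.40 and 5.99 at 0 hr (-0.84 ± 0.23), with overlap. Foxq1, a forkhead factor of brain endothelium, stood at 5.47, 4.86, 5.31 and 5.18 at 24 hr and 6.46, 7.25, 6.04, 6.76 and 6.16 at 0 hr (log2 fold change -1.49, SE 0.27, edgeR adjusted p = 0.0014), apart. Others that fell were Notum (-2.88 ± 0.77), Tnfrsf19 (-1.33 ± 0.39) and Axin2 (-0.80 ± 0.26), where Notum and Axin2 are feedback inhibitors of the pathway. Calls that ended when 1 library was left out were those of Lef1 (L1, L2, N2, edgeR adjusted p 0.0785 to 0.122), Notum (L1, L2, p 0.063 and 0.0693), Tnfrsf19 (L1, L2, N2, p 0.0619 to 0.103) and Axin2 (L1, L4, L5, N1 to N5, p 0.0642 to 0.141).

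Notch and arterial genes fell in 4 (1 without L1, 2 without L2, 7 by ComBat) and rose in 1 of 20 cases (median -0.37). Gkn3, a marker of arterial endothelium in brain, stood at 0.42, 0.76, 1.02 and 0.46 at 24 hr and 6.79, 7.56, 5.64, 5.90 and 6.01 at 0 hr (log2 fold change -5.54, SE 1.18, edgeR adjusted p = 0.00419), with no overlap. The Notch target Hey1 (-1.53 ± 0.37), the arterial ligand Efnb2 (-0.71 ± 0.19) and the netrin receptor Unc5b (-0.94 ± 0.23) fell, while the ligand Dll1 (1.52 ± 0.38) rose. Calls lost without 1 library were those of Hey1 (L1, edgeR adjusted p 0.0616), Efnb2 (L1, L2, L4, N1, p 0.052 to 0.0885), Unc5b (L1, L2, p 0.0775 and 0.0522) and Dll1 (L2, p 0.0614).

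Of 20 junction genes 3 rose (1 without L2) and 3 fell (edgeR 0 without L1, with 4 at an unadjusted p under 0.05, 1 without L4 or N2, 5 by ComBat) (median 0.03). Ocln, occludin of the tight junction, stood at 6.38, 5.46, 5.41 and 6.07 at 24 hr and 7.46, 7.87, 6.06, 6.48 and 6.17 at 0 hr (-1.14 ± 0.31), with overlap. Cldn5, the main claudin of brain endothelium, stood at 10.29, 9.93, 11.26 and 10.89 at 24 hr and 9.97, 10.79, 9.59, 10.01 and 9.65 at 0 hr and was not called (edgeR adjusted p = 0.62). The plaque proteins Jup (-0.79 ± 0.25) and Pkp4 (-0.63 ± 0.15) fell with Ocln. Nectin2 (1.11 ± 0.21), an adhesion protein, and F11r (1.05 ± 0.25), junctional adhesion molecule A, were among those that rose. Without 1 library the threshold was missed by Ocln (L1, L4, N2, edgeR adjusted p 0.0563 to 0.0714), Jup (L1, L4, L5, N1, N2, N4, p 0.0637 to 0.145), Pkp4 (L1, L2, p 0.0574 and 0.0543) and F11r (L2, p 0.0596).

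Among 25 endothelial identity genes 2 rose and 3 fell (1 without L1, L2 or N2, 6 by ComBat), with a median of 0.00. Tek, the angiopoietin receptor TIE2, stood at 6.44, 5.94, 5.29 and 5.29 at 24 hr and 8.03, 8.58, 7.25, 8.08 and 8.16 at 0 hr (log2 fold change -2.09, SE 0.49, edgeR adjusted p = 0.00831), apart between the groups. The phosphatase that opposes it, Ptprb (-1.72 ± 0.49), fell, and so did Flt1 (-0.82 ± 0.27), a decoy receptor for VEGF. Kdr, the main VEGF receptor, stood at 6.42, 5.64, 5.89 and 6.23 at 24 hr and 7.30, 7.53, 6.04, 6.92 and 6.96 at 0 hr with overlap and was not called (edgeR adjusted p = 0.0756). Ecscr, an endothelial surface protein, stood at 8.07, 6.96, 8.39 and 8.39 at 24 hr and 5.40, 6.29, 4.58, 4.74 and 4.40 at 0 hr (2.19 ± 0.33), apart, and the Ras-interacting Rasip1 (1.28 ± 0.28) was higher. With RLE scaling in place of TMM Flt1 was not called. A leave-out of 1 library ended the call of Ptprb (L1, L2, N2, edgeR adjusted p 0.0669 to 0.104) and Flt1 (L1, L2, L5, N1, N2, N4, N5, p 0.0512 to 0.163).

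Ligands and receptors of the angiopoietin, VEGF and adrenomedullin axis rose in 4 (2 without L2) and fell in 4 (8 by ComBat) of 20 cases (median -0.32). Angpt2, the ligand that can block TIE2, stood at 8.05, 7.10, 8.46 and 8.31 at 24 hr and 5.42, 5.23, 4.69, 5.35 and 4.74 at 0 hr (log2 fold change 2.30, SE 0.50, edgeR adjusted p = 0.0048). Adm, the vasodilator adrenomedullin, stood at 6.37, 6.00, 7.29 and 8.41 at 24 hr and 5.00, 5.04, 3.78, 3.36 and 2.45 at 0 hr (log2 fold change 2.35, SE 0.40, edgeR adjusted p = 0.00069). Neither gene had overlapping groups. Angptl4 (3.02 ± 0.67), an inhibitor of lipoprotein lipase, and Ramp3 (2.25 ± 0.70), a part of adrenomedullin receptors, rose with them. Beside Tek and Flt1, Nrp1 (-1.67 ± 0.42), a co-receptor of VEGF, and Aplnr, the apelin receptor, chosen after its values were seen, fell. The test was not passed without 1 library by Angptl4 (L2, edgeR adjusted p 0.0547) and Ramp3 (L2, L4, L5, N1, N2, N3, N5, p 0.0532 to 0.18).

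BMP and TGF-beta genes rose in 2 (edgeR 0 without L5, N1 or N2, with 2 to 4 at an unadjusted p under 0.05, 1 without L1, L2, N3, N4 or N5) and fell in 2 (1 without L1, L2, L4, L5, N1, N2, N3 or N5, 1 by limma-voom, 4 by ComBat) of 21 cases (median -0.03), beside 6.52% higher and 4.66% lower of all genes, with the ligands Bmp6 (-1.87 ± 0.46) and Tgfb2 (-1.25 ± 0.39) lower and the signal carrier Smad1 (1.25 ± 0.36) and the receptor Tgfbr2 (0.85 ± 0.27) higher. Of 8 genes of caveolae, which are flask-shaped membrane pits, 2 fell (1 without L1) (median -0.46). Cav1, the main coat protein, stood at 5.55, 5.42, 4.74 and 5.74 at 24 hr and 8.96, 9.42, 7.02, 7.53 and 7.31 at 0 hr (log2 fold change -2.49, SE 0.67, edgeR adjusted p = 0.0188), with no overlap, and its partner Cav2 (-1.86 ± 0.43) fell with it. Leaving out 1 library ended the call of Tgfb2 (L1, L2, L4, L5, N1, N2, N3, N5, edgeR adjusted p 0.0511 to 0.116), Smad1 (L5, N1, N2, p 0.0519 to 0.0658), Tgfbr2 (L1, L2, L5, N1 to N5, p 0.0558 to 0.0976) and Cav1 (L1, p 0.0811).

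Coagulation genes rose in 7 (4 without L1, L2, N1, N2 or N5) and fell in 2 of 19 cases (median 0.26). Thbd, thrombomodulin, which turns thrombin toward protein C, stood at 8.39, 7.52, 7.33 and 7.75 at 24 hr and 10.12, 9.81, 8.43, 9.50 and 8.08 at 0 hr (log2 fold change -1.56, SE 0.34, edgeR adjusted p = 0.0052), with overlap. The protein C receptor Procr (1.79 ± 0.44) and the plasminogen activator Plat (1.37 ± 0.42) rose, and Gas6 (-1.16 ± 0.28), a ligand of TAM receptors, fell. The call was lost without 1 library for Procr (L2, edgeR adjusted p 0.0581) and Plat (L1, L2, N1, N2, N3, N5, p 0.0584 to 0.171).

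Proteases of the matrix and their inhibitors rose in 6 of 19 cases (median 0.28). Mmp3, stromelysin, stood at 9.37, 7.28, 9.85 and 10.35 at 24 hr and -0.54, -1.32, -2.86, -0.88 and -0.80 at 0 hr, with 32 counts in all at 0 hr (log2 fold change 9.09, SE 1.32, edgeR adjusted p = 0.000185). Adamts1, which cleaves proteoglycans, stood at 9.86, 9.31, 9.98 and 10.18 at 24 hr and 5.52, 6.21, 5.13, 5.82 and 5.80 at 0 hr (log2 fold change 3.52, SE 0.59, edgeR adjusted p = 0.00069). The 24 hr values of both lay above all 0 hr values. The other members that rose were Timp1, the proteases Adamts9 (4.08 ± 0.73) and Adamts4 (3.27 ± 0.70) of the family of Adamts1, and the lysosomal Ctsl (1.83 ± 0.40).

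Basement membrane genes rose in 5 of 18 cases (median 0.20). Col4a1, a chain of type IV collagen, stood at 8.72, 8.80, 9.38 and 9.68 at 24 hr and 6.73, 6.62, 6.68, 6.88 and 7.33 at 0 hr (log2 fold change 2.08, SE 0.40, edgeR adjusted p = 0.0019), apart. With it rose its partner Col4a2 (2.04 ± 0.37), the laminin chain Lama4 (1.45 ± 0.29), and the integrin chains Itga5 (2.56 ± 0.37) and Itga6 (1.18 ± 0.22), which bind fibronectin and laminin. Glycocalyx genes rose in 4 of 20 cases (2 without L1, L2, N1, N2 or N5) (median 0.04), namely the syndecan Sdc4 (2.12 ± 0.50), the glypican Gpc4 (1.00 ± 0.30), the heparan sulfate enzyme Ndst1 (0.74 ± 0.21) and the hyaluronan synthase Has1 (2.93 ± 0.85), the last chosen after its values were seen. With 1 library left out, the test was no longer passed by Gpc4 (L1, L2, N2, N3, N5, edgeR adjusted p 0.0629 to 0.169), Ndst1 (L2, N1, N4, p 0.0506 to 0.0573) and Has1 (L1, L5, N1, N2, N5, p 0.0518 to 0.0666).

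Genes for metal handling rose in 6 and fell in 1 (2 by DESeq2, 2 by ComBat) of 13 cases (median 0.03). Mt2, a metallothionein, stood at 12.48, 12.10, 13.80 and 13.91 at 24 hr and 7.35, 6.50, 8.20, 7.52 and 7.42 at 0 hr (log2 fold change 4.86, SE 0.96, edgeR adjusted p = 0.00245), with differences of 5.55 within library series 1 and 4.39 within series 2. Slc39a14, a zinc and iron importer, stood at 7.75, 6.18, 7.56 and 7.25 at 24 hr and 3.94, 4.16, 4.22, 4.18 and 4.40 at 0 hr (log2 fold change 2.86, SE 0.42, edgeR adjusted p = 0.000188). Both were apart. The other risers named are Mt1 (3.82 ± 0.76), the haem oxygenase Hmox1 (1.84 ± 0.43) and the ferritin chain Fth1 (1.22 ± 0.24), against the lower iron exporter Slc40a1, whose call was lost without any 1 of the 9 libraries (edgeR adjusted p 0.0557 to 0.15).

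Glucocorticoid-responsive genes rose in 6 (2 without L2, 3 without L1, N2 or N5) and fell in 1 of 17 cases (median 0.63). Cdkn1a, the cell cycle inhibitor p21, stood at 9.53, 9.39, 10.94 and 11.41 at 24 hr and 7.51, 6.44, 5.67, 6.09 and 5.31 at 0 hr (log2 fold change 3.11, SE 0.72, edgeR adjusted p = 0.00746), apart. Pdk4 (2.44 ± 0.61), which limits pyruvate oxidation, Errfi1 (2.34 ± 0.54), an inhibitor of EGF receptor signalling, Map3k6 (2.04 ± 0.59), Sgk1 (1.66 ± 0.49), a kinase, and Plin4 (1.33 ± 0.43), a lipid droplet protein, rose. Nr3c1, the glucocorticoid receptor itself, chosen after its values were seen, was lower (-1.06 ± 0.22). The classic targets Fkbp5 and Tsc22d3 were not called, at 8.97, 8.50, 8.79 and 9.21 at 24 hr and 8.65, 7.64, 7.09, 7.70 and 5.85 at 0 hr for Fkbp5 and 8.86, 8.94, 9.78 and 9.83 at 24 hr and 10.02, 9.15, 9.14, 9.17 and 8.35 at 0 hr for Tsc22d3, with overlap in both. Calls that ended when 1 library was left out were those of Cdkn1a (L2, edgeR adjusted p 0.0682), Pdk4 (L2, p 0.0934), Map3k6 (L1, L2, N2, N5, p 0.0582 to 0.134) and Sgk1 (L1, L2, N2, N4, N5, p 0.0532 to 0.124). Calls lost without 1 library were those of Plin4 (L1, L4, N2, N3, N4, N5, edgeR adjusted p 0.0607 to 0.267).

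Circadian clock genes rose in 2 (1 without L2, L4, L5, N1, N2 or N4, 1 by limma-voom) and fell in 3 (5 by ComBat) of 18 cases (median -0.10). Dbp, an output factor of the clock, stood at 5.38, 6.18, 5.60 and 5.27 at 24 hr and 7.59, 8.14, 8.04, 7.76 and 7.93 at 0 hr (log2 fold change -2.04, SE 0.43, edgeR adjusted p = 0.00381), apart. Its antagonist Nfil3 (2.08 ± 0.53) and the core factor Arntl (1.32 ± 0.42) rose, and Nr1d2 (-0.89 ± 0.22) and Hlf (-1.07 ± 0.33) fell. The hour of day at which brains were taken is not given in the sources used here. Without 1 library the threshold was missed by Arntl (L2, L4, L5, N1, N2, N4, edgeR adjusted p 0.054 to 0.103) and Hlf (L1, L4, L5, N1, N2, N4, p 0.0534 to 0.137).

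Immediate early genes rose in 6 of 21 cases (2 without L2, 3 by limma-voom) (median 0.92). Myc, a growth regulator, stood at 6.12, 5.54, 5.67 and 6.27 at 24 hr and 2.12, 1.82, 1.83, 2.42 and 1.36 at 0 hr (log2 fold change 3.21, SE 0.73, edgeR adjusted p = 0.00653), apart, and Ier3 (1.89 ± 0.48), Fosl2 (1.55 ± 0.50) and Ier2 (1.15 ± 0.37) rose beside Junb. Genes of endoplasmic reticulum stress rose in 3 of 19 cases (1 without L1, L2, L4, L5, N1, N2, N3 or N5, 5 by DESeq2, 6 by ComBat) (median 0.46), the factors Xbp1 (1.67 ± 0.36) and Atf4 (1.45 ± 0.46) and the secreted Manf (0.85 ± 0.27). Heat shock proteins were called by edgeR in 0 of 12 cases, as by DESeq2 and limma-voom and at an unadjusted p under 0.05 (median 0.20), and Hspa1a, an inducible chaperone, stood at 4.18, 4.49, 4.09 and 4.09 at 24 hr and 4.06, 4.18, 4.14, 4.28 and 3.36 at 0 hr. A leave-out of 1 library ended the call of Myc (L2, edgeR adjusted p 0.107), Ier3 (L2, p 0.0973), Fosl2 (L1, L2, L4, L5, N1, N2, N3, N5, p 0.0516 to 0.105) and Ier2 (L1, L2, L4, L5, N1, N2, N3, N5, p 0.0523 to 0.129). The test was not passed without 1 library by Atf4 (L1, L2, L4, L5, N1, N2, N3, N5, edgeR adjusted p 0.0541 to 0.122) and Manf (L1, L2, L4, L5, N1, N2, N3, N5, p 0.0542 to 0.102).

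Cell death genes rose in 8 of 22 cases (4 without L1, 5 without L2, N3 or N5, 14 by ComBat) (median 0.64). Casp4, the caspase that senses LPS inside cells, stood at 6.25, 4.49, 6.62 and 6.82 at 24 hr and 2.04, 2.18, 0.99, 1.09 and 1.40 at 0 hr (log2 fold change 3.78, SE 0.71, edgeR adjusted p = 0.00169). Mlkl, the pore protein of necroptosis, stood at 4.39, 3.35, 5.48 and 5.69 at 24 hr and 2.37, 2.71, 1.35, 1.80 and 1.06 at 0 hr (log2 fold change 2.33, SE 0.54, edgeR adjusted p = 0.00752). Their groups did not overlap. The BH3 proteins Pmaip1 (2.37 ± 0.77) and Bid (1.28 ± 0.32) and the pore former Gsdmd (0.98 ± 0.28) were higher too. Leaving out 1 library ended the call of Bid (L1, L2, edgeR adjusted p 0.0783 and 0.0572) and Gsdmd (L1, N3, N5, p 0.0533 to 0.122). Any 1 of the 9 libraries, left out, ended the call of Pmaip1 (edgeR adjusted p 0.0518 to 0.291).

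Prostaglandin genes rose in 3 (5 by ComBat) and fell in 1 (2 by DESeq2, 2 by ComBat) of 16 cases (median 0.02). Ptgs2, the inducible cyclooxygenase, stood at 8.12, 6.82, 6.99 and 8.25 at 24 hr and 3.64, 4.62, 2.69, 3.41 and 2.90 at 0 hr (log2 fold change 3.54, SE 0.72, edgeR adjusted p = 0.00298). Ptges, the inducible prostaglandin E synthase, stood at 9.24, 7.53, 7.94 and 8.30 at 24 hr and 6.35, 6.00, 5.14, 5.49 and 4.43 at 0 hr (log2 fold change 2.34, SE 0.53, edgeR adjusted p = 0.00674). Groups were apart for both. Ptges2 (0.86 ± 0.24) rose, and the receptor Ptger1 (-1.73 ± 0.41), chosen after its values were seen, fell. In the list of nitric oxide and vascular tone 17 genes were tested (median 0.27) and 1 was called, higher at 24 hr (2 without L4, edgeR 0 without L1, with 4 at an unadjusted p under 0.05, 2 by DESeq2, 0 by limma-voom, 4 by ComBat, 4 unadjusted). Nos3, the endothelial nitric oxide synthase, stood at 7.98, 6.98, 6.86 and 6.06 at 24 hr and 6.93, 7.83, 5.82, 6.11 and 6.06 at 0 hr with overlap and was not called (edgeR adjusted p = 0.468). The call was lost without 1 library for Ptges2 (L1, L2, N1, N2, edgeR adjusted p 0.0559 to 0.0811).

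Cholesterol and oxysterol genes rose in 6 of 23 cases (3 without L1, L4, N1 or N2) (median 0.39). Beside Ch25h these included the synthesis enzymes Lss (0.75 ± 0.20), Sqle (0.69 ± 0.22), Cyp51 (0.65 ± 0.19) and Fdft1 (0.64 ± 0.20). In glycolysis 2 of 18 genes rose (1 without L1, L2 or N2, 5 by ComBat) (median 0.14), Pfkfb3 (2.31 ± 0.64), which makes the activator of phosphofructokinase, and Slc16a3 (2.66 ± 0.60), a lactate exporter chosen after its values were seen. Among 29 cell cycle genes 1 rose (2 by DESeq2, 0 by limma-voom, 3 by ComBat, 4 unadjusted) (median 0.56), the replication helicase subunit Mcm3 (0.91 ± 0.27). With 1 library left out, the test was no longer passed by Lss (N2, edgeR adjusted p 0.0557), Sqle (L1, L4, N1, N2, N3, N4, p 0.0626 to 0.184), Cyp51 (L1, L4, N1, N2, p 0.0505 to 0.134) and Fdft1 (L1, L2, L4, L5, N1, N3, N4, N5, p 0.0664 to 0.138). Calls that ended when 1 library was left out were those of Pfkfb3 (L1, L2, N2, edgeR adjusted p 0.052 to 0.0543) and Mcm3 (L1, L2, N1, N2, N3, p 0.0504 to 0.176).

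Genes of the cytosolic ribosome rose in 20 (3 without L2, 4 without N1, 5 without L1, 6 without N2, 46 by ComBat) and fell in 1 of 81 cases (median 0.62). Rpl10, a protein of the large subunit, stood at 5.55, 4.28, 5.94 and 6.31 at 24 hr and 3.14, 2.73, 2.55, 1.85 and 2.65 at 0 hr (log2 fold change 2.15, SE 0.34, edgeR adjusted p = 0.000405), apart. Others were Rps2 (1.57 ± 0.31), Rpl32l (1.15 ± 0.32), Rpl32 (1.07 ± 0.30), Rpl7a (0.97 ± 0.23) and Rps18 (0.96 ± 0.28), and the lower member was Rpl27a (-0.83 ± 0.21), chosen after its values were seen. These genes have many processed pseudogenes, so reads can be shared and the values are uncertain. Of 80 nuclear genes of the respiratory chain 5 fell (1 without L1, L4, L5, N1 or N4, 2 without L2 or N2, 3 without N3, 8 by DESeq2, 3 by limma-voom, 15 by ComBat) (median -0.21), a share near the 4.66% of all genes. These were Ndufa13 (-0.70 ± 0.22), Ndufv3 (-0.68 ± 0.20), Uqcr11 (-0.64 ± 0.19), Atp5k (-0.61 ± 0.20) and Cox7a1 (-2.35 ± 0.47), the last chosen after its values were seen. With RLE scaling Ndufa13 and Atp5k were not called. Of 13 mitochondrially encoded protein genes 7 were tested and edgeR called 0, as did DESeq2 and limma-voom, with 0 at an unadjusted p under 0.05 (median 0.05). The mitochondrially encoded share of counts was 0.455% ± 0.466 (SD, n = 4) at 24 hr and 1.36% ± 1.18 (SD, n = 5) at 0 hr (exact permutation p = 0.19, without regard to library series). Calls lost without 1 library were those of Rpl32l (L1, L2, N1, N2, edgeR adjusted p 0.0529 to 0.111), Rpl32 (L1, L2, N1, N2, p 0.0622 to 0.109), Rpl7a (L2, p 0.0729) and Rps18 (L1, L2, N1, N2, p 0.0566 to 0.123). Without 1 library the threshold was missed by Rpl27a (L1, L2, edgeR adjusted p 0.0509 and 0.096), Ndufa13 (L1, L2, L4, L5, N1, N2, N3, N4, p 0.0539 to 0.194), Ndufv3 (L1, L4, L5, N1, N4, p 0.0727 to 0.218) and Uqcr11 (L1, L2, L4, L5, N1, N2, N4, p 0.0501 to 0.232). A leave-out of 1 library ended the call of Atp5k (L1, L2, L4, L5, N1, N2, N3, N4, edgeR adjusted p 0.0539 to 0.195).

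**Figure D3:**
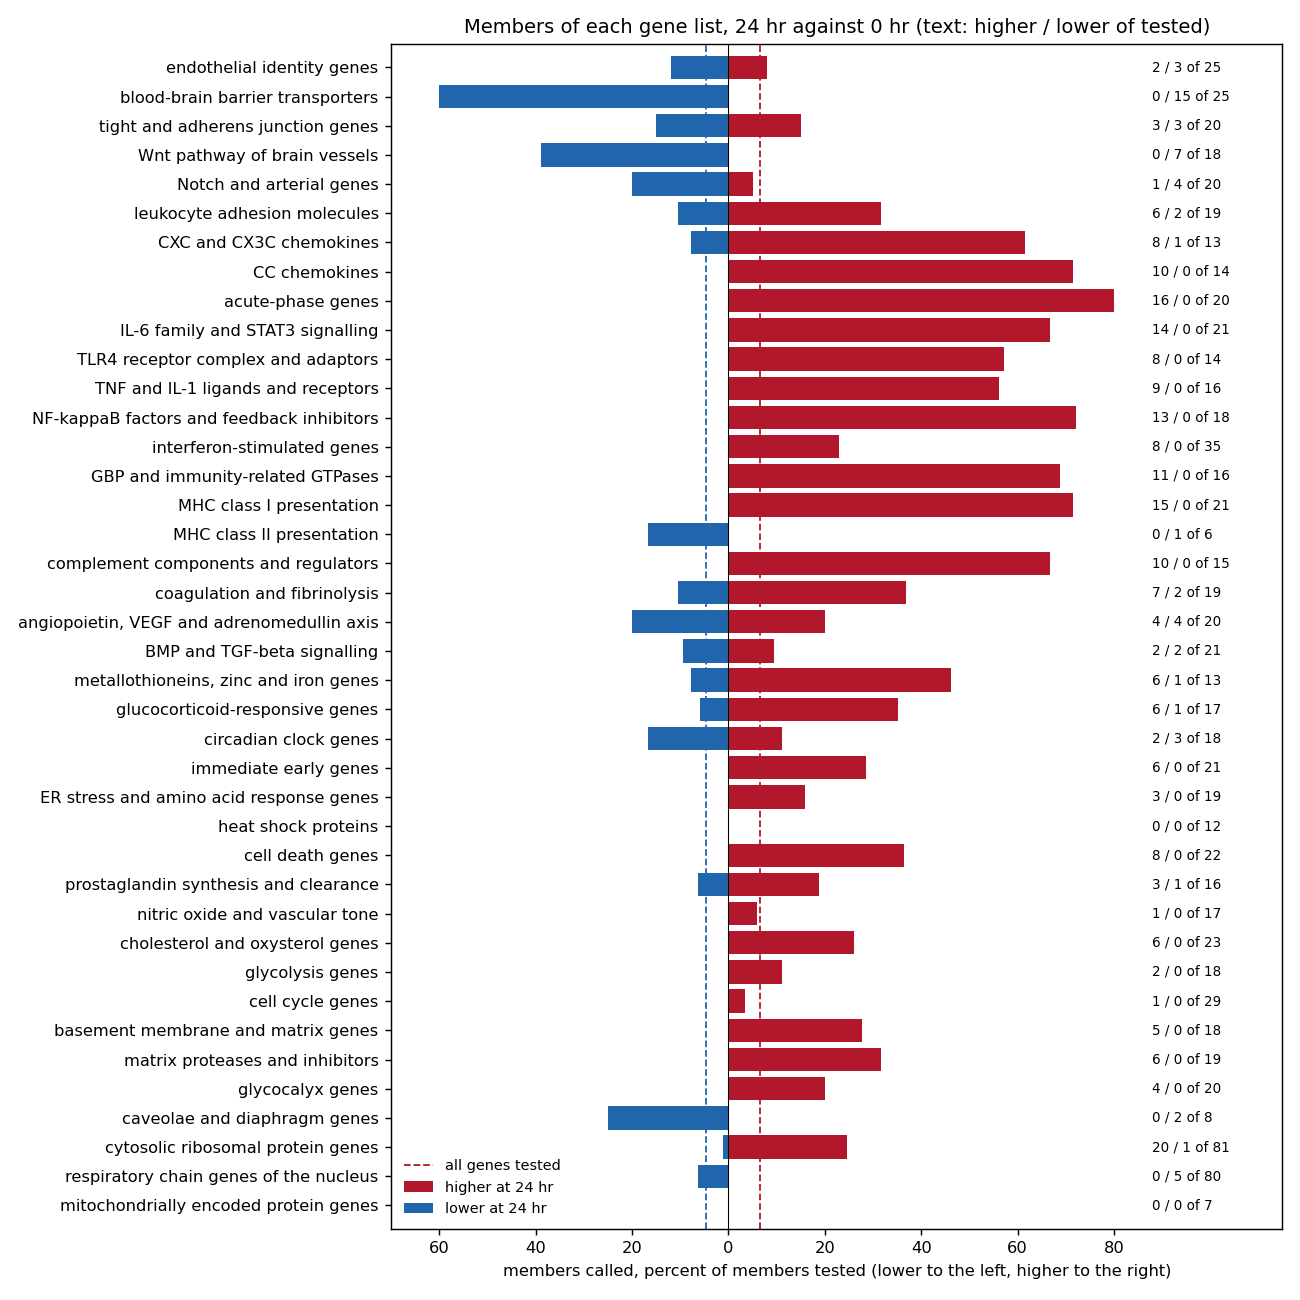
Bars show the percent of tested members called higher (red, to the right) and lower (blue, to the left) at 24 hr for each of 40 gene lists, with dashed lines at the 6.52% and 4.66% of all genes. Acute-phase genes have 16 of 20 higher and blood-brain barrier transporters 15 of 25 lower. Of the 20 acute-phase genes 5 had no count at 0 hr and could only come out higher.

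The response at 24 hr was set against that at 6 hr in the same fit. Replicates 1 to 4 at 6 hr are series 2, as is 24 hr replicate 2. Replicate 6 at 6 hr, which went against its label, is series 1, and series 4 holds no 6 hr library. Time and library series are thus partly confounded in this comparison. At 24 hr 51 genes (0.265% of 19234) were higher and 5 (0.0260%) lower than at 6 hr. Of these 27 and 2 were also called against 0 hr. Lgals3, the lectin galectin-3, differed from 6 hr by 2.17 ± 0.40 (SE, edgeR adjusted p = 0.0176), and against 0 hr it rose by 3.28 ± 0.40. Prcp, a carboxypeptidase that cuts kinins and angiotensins, differed by 1.77 ± 0.30 from 6 hr and rose by 1.25 ± 0.29 against 0 hr. Itga3, an integrin chain that binds laminin, differed by 1.29 ± 0.25 from 6 hr (1.24 ± 0.24 against 0 hr). Tinagl1, a matrix protein, differed by 1.28 ± 0.26 from 6 hr (1.30 ± 0.25 against 0 hr). Nucb2, the precursor of nesfatin, differed by 1.23 ± 0.24 from 6 hr (1.42 ± 0.24 against 0 hr). By edgeR the difference from 6 hr was not called without 1 library (S1 is 6 hr replicate 1) for Lgals3 (L2, S1, adjusted p 0.0526 to 0.329), Prcp (L2, adjusted p 0.26), Itga3 (L2, S1, adjusted p 0.0667 to 0.424), Tinagl1 (L1, L2, S1, adjusted p 0.102 to 0.428) and Nucb2 (L1, L2, L4, L5, S1, adjusted p 0.0558 to 0.424). With no library left out Tinagl1 was not called either (adjusted p 0.0709). The test was not passed without 1 library by Prcp (L2, edgeR adjusted p 0.092). This last value concerns its call against 0 hr.

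The 5 genes lower at 24 hr than at 6 hr, named after their values were seen, were (log2 difference) Ifi203 (-3.14), Kirrel2 (-1.42), Sp100 (-1.41), Tor3a (-1.79) and Ttll5 (-0.87). Ifi203 and Sp100 are known as interferon-induced nuclear proteins. Against 0 hr Ifi203 (-1.99 ± 0.64) and Ttll5 (-0.81 ± 0.18) were called lower, and the others were not called (-0.41 ± 0.28 for Kirrel2, -0.51 ± 0.28 for Sp100 and -0.14 ± 0.28 for Tor3a). These counts rest on single libraries. Without 24 hr replicate 1 they were 33 higher and 1 lower, without 24 hr replicate 2 the higher count was 4 and edgeR called 0 lower (913 at an unadjusted p under 0.05, and 1 by limma-voom with all kept libraries), without 24 hr replicate 4 the lower count was 2 and without replicate 5 it was 2. Without 6 hr replicate 1 they were 10 and 1, without replicate 2 the lower count was 16, and without replicate 3 they were 32 and 1. Without 6 hr replicate 6, which went against its label, they were 125 and 95. Leaving out 1 library ended the call of Ifi203 (L1, L2, N1, N2, N5, edgeR adjusted p 0.0538 to 0.181) and Ttll5 (L1, L2, p 0.0742 and 0.0642). Both concern the calls against 0 hr.

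Over time Saa3 stood at 10.72, 10.63, 10.71, 10.63 and 0.53 log2 CPM at 6 hr (replicates 1, 2, 3, 4 and 6), the last being the library at odds with its label, and at 9.25, 9.46, 8.56 and 9.91 at 72 hr (replicates 1, 2, 3 and 5). Slco1c1 stood at 5.09, 6.36, 5.59, 6.36 and 9.18 at 6 hr and at 9.39, 9.90, 9.58 and 7.14 at 72 hr. By 72 hr Slco1c1 lay within or above its 0 hr range in 3 of 4 libraries, while Saa3 remained above all its 0 hr values.

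**Figure D4:**
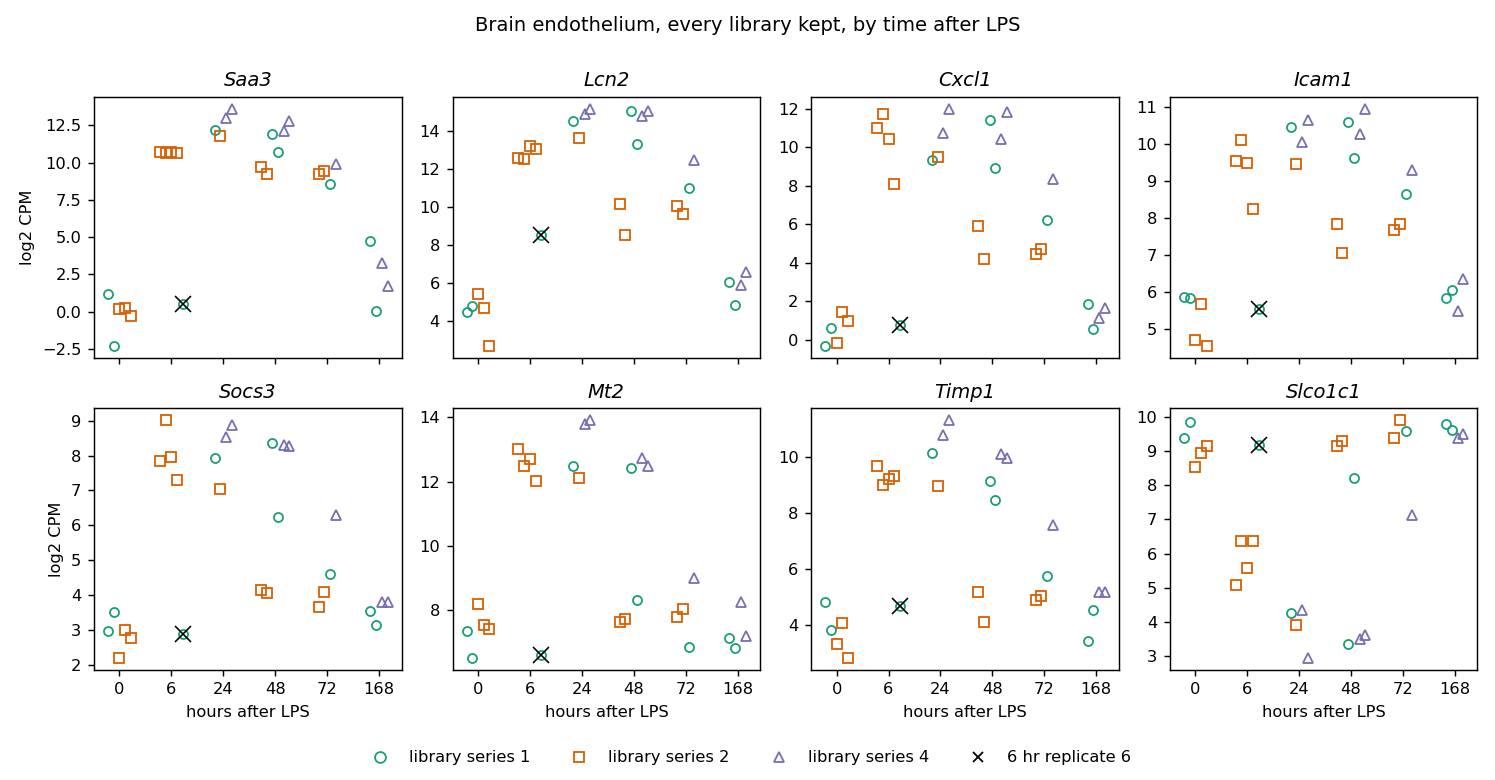
Log2 CPM (vertical axis) of Saa3, Lcn2, Cxcl1, Icam1, Socs3, Mt2, Timp1 and Slco1c1 in each of the 28 kept brain libraries by hours after LPS (horizontal axis), with point shapes for library series and a cross on the library labelled 6 hr replicate 6. Saa3 lies between 11.80 and 13.64 at 24 hr and at 0.53 in the crossed library.

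Whether the response of brain endothelium differed from that of heart endothelium was tested as a difference of the 24 hr responses, in 1 fit of 28 brain and 28 heart libraries, of which 4 heart libraries were taken at 24 hr and 5 at 0 hr. The response was more positive in brain for 68 genes (0.341% of 19924) and more negative for 59 (0.296%). Of the 68, 45 had responses of opposite sign, 4 were above 0 in both tissues and 19 below 0 in both, and of the 59 the counts were 43 of opposite sign and 16 above 0 in both. These signs were counted without a tolerance or a test. Some brain responses lay near 0, such as those of Cacna1b (0.02), Htra1 (0.02) and Gprc5b (-0.01). Of these genes 17 and 8 were also called in brain at 24 hr against 0 hr. Leaving out 24 hr replicate 1 of brain made the second count 36, leaving out 24 hr replicate 2 made the counts 32 and 28, leaving out 0 hr replicate 1 made the first 43 and leaving out 0 hr replicate 4 made the second 39. Without the 3 libraries that went against their labels (brain 6 hr replicate 6, heart 6 hr replicate 5 and heart 72 hr replicate 1) the counts were 232 and 169.

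Prg4, the lubricant lubricin, differed by 3.12 ± 0.68 (SE, edgeR adjusted p = 0.0168), with a brain response of 2.84 and a heart response of -0.28. Aldh1l1 differed by 2.91 (0.85 in brain and -2.06 in heart). Dlg2, a synaptic scaffold, differed by 2.88, with -0.60 in brain and -3.48 in heart. Ism1, a secreted protein, differed by 2.82 (0.88 and -1.94), and Cpm, a carboxypeptidase, by 1.84 (1.14 and -0.70). Members described above that were also called here were C3 (4.37), Mmp3 (5.77) and Lama4 (1.73). By edgeR the difference between tissues was not called without 1 library for Prg4 (L2, adjusted p 0.0706) and Cpm (L1, L5, N1, N2, N3, N4, adjusted p 0.0553 to 0.161). By edgeR it was also lost for C3 (L1, N1, N2, adjusted p 0.0647 to 0.0746), Mmp3 (L1, L2, N1, N2, N3, adjusted p 0.0746 to 0.142) and Lama4 (L1, adjusted p 0.0793). Limma-voom did not call the difference for Aldh1l1 (adjusted p 0.0546), Cpm (0.102), C3 (0.0669) and Mmp3 (0.384), nor edgeR without the series covariate for Dlg2 (0.168) and Cpm (0.0527). The call was lost without 1 library for Ism1 (L1, L2, N1 to N5, edgeR adjusted p 0.0504 to 0.231) and Cpm (L1, N2, N3, p 0.0529 to 0.136). Each of the 9 libraries, left out alone, ended the call of Dlg2 (edgeR adjusted p 0.0505 to 0.183). The leave-outs for Ism1 and Dlg2 and the later ones for Cpm concern the calls against 0 hr.

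Among the genes with the more negative response in brain were carriers and receptors. Lrp8, a receptor for reelin and apolipoprotein E, differed by -3.89 ± 0.60 (SE, edgeR adjusted p = 0.00131), with -0.97 in brain and 2.91 in heart. Slc7a5 differed by -3.47 (-2.64 in brain and 0.83 in heart). Nnat, neuronatin, differed by -3.27 (-1.60 and 1.67), Foxq1 by -2.74 (-1.53 and 1.20) and Slc6a9, a glycine carrier, by -2.58 (-1.28 and 1.30). Slc2a1 was called here as well, with a difference of -2.97, from -0.70 in brain, where it was not called, and 2.27 in heart. Leave-outs that ended edgeR's call of the difference were those of Slc7a5 (L1, L2, adjusted p 0.081 to 0.0953), Nnat (L1, L2, L4, N1, N3, N4, adjusted p 0.0506 to 0.0825) and Foxq1 (L1, L2, L4, L5, N1 to N5, adjusted p 0.0506 to 0.0942). Limma-voom did not call it for Nnat (adjusted p 0.251), Foxq1 (0.0815) and Slc6a9 (0.0687), nor edgeR for Foxq1 with RLE scaling (0.0545), with no library left out (0.0748) or without the series covariate (0.217). With 1 library left out, the test was no longer passed by Lrp8 (L1, L2, N2, edgeR adjusted p 0.0741 to 0.0971), Nnat (L1, L2, L4, N1, N3, N4, p 0.0512 to 0.116) and Slc6a9 (L1, L2, L4, L5, N1, N2, N3, N4, p 0.0597 to 0.111). The leave-outs for Lrp8 and Slc6a9 and the later ones for Nnat concern the calls against 0 hr.

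**Figure D5:**
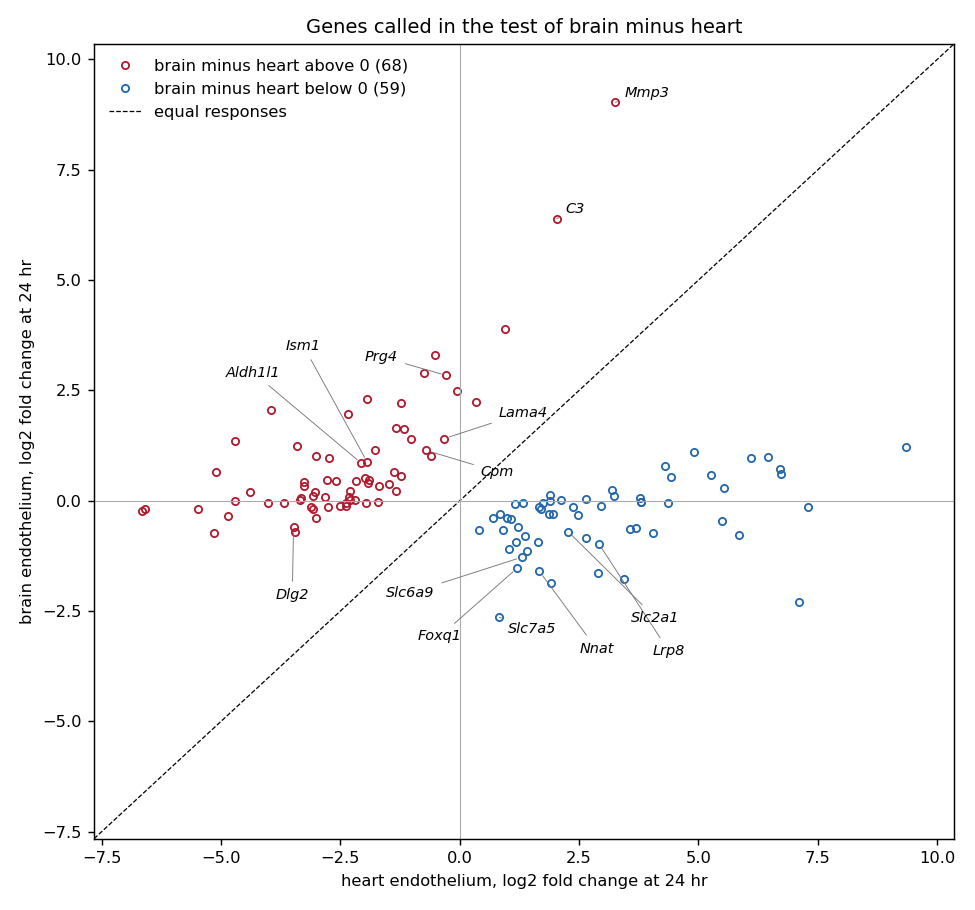
The log2 response at 24 hr in brain (vertical axis) is plotted against that in heart (horizontal axis) for the 68 genes with a more positive (red) and the 59 with a more negative (blue) response in brain, with a dashed line at equal responses. Lrp8 lies at -0.97 in brain and 2.91 in heart.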

How the data were processed

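Adult mouse brains of the RiboTag-EC line were sampled at 6 time points from 0 to 168 hr after LPS, with heart and lung beside them, and RNA was taken from an anti-HA pull-down. The authors aligned reads to mm10 with STAR 2.4.2 and counted them per gene with HTSeq 0.6.1, and the deposited values are raw counts per gene for each sequencing run, with no normalisation. The strand setting and the annotation release are not given in the sources used here. Gene identifiers numbered 52550, of which 52403 were matched to a symbol. Exon overlaps were taken from the GENCODE vM21 annotation at hand.

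Count files of one library (same tissue, time and replicate number) were summed, 23 runs of 217 for the 9 libraries described, 1 to 4 runs each. Reads assigned to no feature, ambiguously or to several places entered only the share of reads on genes, which was 55.0% to 68.7% in these 9 libraries, with 3.40% to 11.8% on no feature and 26.8% to 38.5% at several places. Libraries under 3% on this measure were left out: 24 hr replicate 3 (2.08%, 577325 gene counts) and 0 hr replicate 6 (2.54%, 582145 gene counts). Of 34 brain libraries 28 were kept.

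Genes were filtered with filterByExpr, scaled by TMM and tested by the two-sided quasi-likelihood test of edgeR 4.0.16 (R 4.3.3) on time group and library series, with Benjamini-Hochberg adjustment and a threshold of 0.05. Alternatives changed the tool (limma 3.58.1, DESeq2 1.42.0, sva 3.50.0 for ComBat), scaling, filter, covariate, dispersion, the libraries in the fit and a fold change minimum, and left out single brain libraries in turn. Tables and figures were made with Python 3.11.15 and scipy 1.17.1. The edgeR fits of brain and of brain with heart were tested on simulated counts. A first criterion for the brain fit, a share of small changes to be recovered, was not met and was replaced by others. Few of the small changes were recovered, and with heart many of the larger ones were missed too, so that a gene that was not called may have changed.

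Named genes are the 15 per direction with the largest fold change among called genes with a mean of at least 4 log2 CPM and groups that do not overlap, up to 6 called members per list with a mean of at least 3, chosen members that were not called, Cdh5, Pecam1 and Rpl22, and 5 per direction, with a mean of at least 4 and also called against 0 hr, from the comparisons with 6 hr and with heart. Others are said to be chosen after their values were seen. The members and lists were chosen with earlier results of these data known. Some genes that the naming rule takes are not reported here.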

Additional observations from a re-analysis of the deposited data

Results flagged for a closer look

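In 21 of 464 groups of libraries tested (4.53%, where chance gives about 1 in 20) 1 library stood apart from the rest of its group. At 24 hr replicate 2 was the low library for Pla1a (6.84 log2 CPM), Slc2a1 (9.88), Irak3 (6.89), Dcn (10.24), Tirap (3.70), C1s1 (3.38), Gsdmd (4.71) and Col3a1 (5.71) and the high one for Kirrel2 (2.95), and its mitochondrially encoded share of counts was the highest of the 4, at 1.15%. This replicate is the series 2 library at 24 hr. That share was 2.34%, 1.32% and 2.73% in the 0 hr libraries of series 2, and 0.231% and 0.161% in those of series 1. Library series did not enter the search for such libraries. Replicate 1 at 24 hr was the high library for AU021092 (3.53), Slc22a6 (6.67), Selp (8.59) and Sele (7.66) and the low one for P2ry12 (-1.20), and replicate 5 was low for Map3k6 (6.97). At 0 hr replicate 1 was low for Ackr1 (4.29) and Lrp8 (5.75), replicate 2 high for Gas6 (7.53), replicate 4 low for Pfkfb3 (5.12) and replicate 5 low for Hspa1a (3.36).

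Of 229 named genes 14 had a 24 hr response that differed between brain and heart by edgeR's test of the difference, which called 68 and 59 of all 19924 genes. Of the 14, 10 were taken by the naming rule from that test (2 of them from a list too), so that their number follows in part from the choice. The response was more positive in brain for Mmp3 (by 5.77 log2 units), C3 (4.37), Prg4 (3.12), Aldh1l1 (2.91), Dlg2 (2.88), Ism1 (2.82), Cpm (1.84) and Lama4 (1.73). Brain was the more negative for Lrp8 (-3.89), Slc7a5 (-3.47), Nnat (-3.27), Slc2a1 (-2.97), Foxq1 (-2.74) and Slc6a9 (-2.58).

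The left-out 24 hr replicate 3 held 31 counts of Saa3 (53.7 CPM) and 376 of Lcn2 (651 CPM). In the left-out 0 hr replicate 6 both genes had 0 counts, which allows up to 5.15 CPM. These values come from libraries that enter no comparison.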

How the results depend on the processing

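All 211 called genes named here kept their direction under every alternative run for the comparison of 24 with 0 hr in which they were tested. They were chosen as called in the same libraries, which largely fixes this outcome. Within both series 1 and 2, 1245 of all 1254 genes called higher and all 897 called lower had their direction. Sizes moved more for some of the 211. Log2 fold changes ranged over the alternatives from 0.06 to 1.19 for Sqle, -1.08 to -0.12 for Jup and 0.38 to 1.74 for C4b. Those of Igtp ranged from 0.47 to 3.02 and those of Ramp3 from 0.56 to 3.08. Calls kept ranged from 211 with ComBat and limma or robust dispersion to 182 with limma-voom, 134 with the replicate block, 116 with library series 1 and 2 at all times and 25 within library series 1. Series 1 and series 2 each hold 1 library at 24 hr, assumed to vary like the others. DESeq2 tested and called 210 of them.

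The counts of 1254 higher and 897 lower genes were 1806 and 1277 with DESeq2, 886 and 746 with limma-voom, 1404 and 807 with RLE scaling, 1578 and 1106 without the filter on low counts, and 1338 and 689 with no library left out. They were 2291 and 2322 with ComBat and limma, 2106 and 1302 with the 24 and 0 hr libraries alone and library series, and 2373 and 1459 with those libraries and no covariate. Library series 1 and 2 at all times gave 537 and 164, series 1 alone 58 and 5, and series 2 alone 841 and 354. Without the series covariate the counts were 1822 and 1126, and the median log2 fold change of all genes moved from -0.025 to -0.162. Leave-outs of 1 library of the 24 or 0 hr groups gave 659 to 1128 higher and 258 to 807 lower. Added after seeing the data, the fit without 6 hr replicate 6 gave 1435 and 1138, and the 24 and 0 hr libraries of series 1 and 2 gave 1895 and 1266.

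Whether replicate numbers pair the libraries could not be told. Deviations of same-numbered libraries correlated at 0.363 for replicate 1, where both are of series 1. Across library series they correlated at -0.455, -0.318 and -0.309 for replicates 2, 4 and 5. Differently numbered libraries of the same series correlated at 0.378 (24 hr replicate 1 with 0 hr replicate 2) and 0.315 to 0.487 (24 hr replicate 2 with 0 hr replicates 3 to 5). Pairing and series thus cannot be told apart. With the replicate block, on the 24 and 0 hr libraries with no series term, 641 genes were higher and 369 lower.

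Against 6 hr, the counts of 51 and 5 were 51 and 5 with RLE, 52 and 22 with no library left out, 36 and 1 with limma-voom and 183 and 23 without the series covariate. Leave-outs of 24 hr libraries gave 4 to 49 higher and 0 to 2 lower, the 0 being edgeR's count without replicate 2, where 913 were lower at an unadjusted p under 0.05. Limma-voom, run with all kept libraries, called 1. Leave-outs of 6 hr libraries, added after seeing the data, gave 10 to 125 higher and 1 to 95 lower, the highest without replicate 6.

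Between brain and heart, the counts of 68 and 59 were 76 and 50 with RLE, 92 and 66 with no library left out, 49 and 29 with limma-voom and 63 and 106 without the series covariate. Leave-outs of single brain libraries at 24 or 0 hr (none of heart was run) gave 32 to 57 and 28 to 50, and without the 3 libraries at odds with their labels, left out after seeing the data, 232 and 169. The causes of these shifts were not tested.

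The number of libraries limits these results: 4 and 5 libraries, with 2 of the 24 hr libraries in a series that holds no 0 hr library, so that their offset rests on other time points. Total gene counts differed from 8757674 to 28391180 between libraries, and calls of genes with few counts are the least precise.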
